A study of Homo sapiens with 12 samples.

Results

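The genes described here are 36 enzymes and regulators of cholesterol and fatty acid synthesis, out of 58721 genes counted in ribosome profiling of HepG2, a human liver cancer cell line. They were taken by gene name from a pathway list. No measured value enters the rule, but the list was drawn up with earlier results of these data known. They fall into 7 genes of the mevalonate pathway, 11 genes from squalene to cholesterol, 6 genes of sterol sensing and transport, and 12 genes of fatty acid synthesis. The first 3 groups are called the sterol branch (24 genes) and the last one the fatty acid branch. Cells were transfected with a control siRNA (siControl) or with an siRNA that targets IGF2BP3 (siIGF2BP3), which encodes an RNA-binding protein that the study examined as a reader of internal m7G, a methylated base in mRNA. Each condition was sequenced as Input, which reports transcript abundance, and as ribosome-protected fragments (RPF), which report ribosome occupancy, in 3 libraries per group and 12 in all. Per the labels, every group was collected 2 days after transfection and received 100 µg/mL cycloheximide, which arrests translation, for 4 min before lysis. The knockdown was transient. The labels do not say whether the replicates were separate cultures, so the p-values measure the spread between these libraries.

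Cholesterol is built from acetyl-CoA through mevalonate and squalene, and fatty acids are built from the same precursor by carboxylation and repeated condensation. Both routes are controlled at the level of transcription by the SREBP proteins, which SREBF1 and SREBF2 encode. SREBPs are held in the endoplasmic reticulum by SCAP and the INSIG proteins when sterols are abundant, and are released to the Golgi apparatus and cleaved when sterols are scarce. Hepatocytes and hepatoma cells use both routes heavily for lipoprotein and membrane production.

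Promoters of the pathway are shown first, because co-regulation of these genes is known to run through sites just upstream of the start. RefSeq promoters (GRCh38.p14, 250 bases before to 50 bases after each start) were available for 32 of the 36 genes, as 44 sequences. 3 motifs were searched on both strands: TCACNCCAC, the core of a classical sterol regulatory element, CCAAT, the box read by NF-Y, and GGGCGG, the GC box read by Sp1. TCACNCCAC occurred in 1 of the 44 sequences, in SREBF2, and in 1.13% of all 35116 promoters. CCAAT occurred in 28 of 44 sequences (63.6%) against 34.6% of all promoters. GGGCGG occurred in 37 of 44 (84.1%) against 45.0%. No share was taken over promoters of protein-coding genes alone or of like GC content, so the contrast may not be particular to the pathway. Counted by gene, CCAAT was present in 16 of 21 sterol genes and in 8 of 11 fatty acid genes with an entry. The promoters of SREBF2 (chr22:41832855-41833154, plus strand), MSMO1 (chr4:165327419-165327718, plus strand), LSS (chr21:46228725-46229024, minus strand), DHCR7 (chr11:71448344-71448643, minus strand) and MVD (chr16:88663042-88663341, minus strand) are printed 5′ to 3′. SREBF2 is shown for its sterol element, and the other four as examples of genes whose RPF values are described below, chosen after those values were seen. RefSeq holds another DHCR7 promoter (chr11:71448994-71449293, minus strand), which has none of the 3 motifs and is not printed. Capitals mark CCAAT or its complement and, in SREBF2, also TCACNCCAC. The match is one of letters, and binding was not measured.
SREBF2: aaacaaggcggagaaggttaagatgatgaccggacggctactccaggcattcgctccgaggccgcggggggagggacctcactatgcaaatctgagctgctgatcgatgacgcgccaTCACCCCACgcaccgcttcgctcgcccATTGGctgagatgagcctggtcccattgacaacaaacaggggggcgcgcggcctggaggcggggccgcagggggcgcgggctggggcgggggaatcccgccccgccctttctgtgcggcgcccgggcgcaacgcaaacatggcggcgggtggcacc
MSMO1: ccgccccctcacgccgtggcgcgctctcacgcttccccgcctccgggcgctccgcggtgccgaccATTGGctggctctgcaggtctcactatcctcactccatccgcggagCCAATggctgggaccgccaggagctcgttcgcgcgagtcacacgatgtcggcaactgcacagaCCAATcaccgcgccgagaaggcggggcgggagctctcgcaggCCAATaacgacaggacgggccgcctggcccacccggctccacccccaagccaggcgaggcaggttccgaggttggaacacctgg
LSS: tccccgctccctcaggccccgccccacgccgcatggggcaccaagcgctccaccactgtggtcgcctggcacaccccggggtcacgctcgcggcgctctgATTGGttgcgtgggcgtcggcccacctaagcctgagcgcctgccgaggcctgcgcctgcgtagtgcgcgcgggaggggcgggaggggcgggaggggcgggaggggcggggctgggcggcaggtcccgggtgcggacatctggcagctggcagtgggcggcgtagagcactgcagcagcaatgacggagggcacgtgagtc
DHCR7: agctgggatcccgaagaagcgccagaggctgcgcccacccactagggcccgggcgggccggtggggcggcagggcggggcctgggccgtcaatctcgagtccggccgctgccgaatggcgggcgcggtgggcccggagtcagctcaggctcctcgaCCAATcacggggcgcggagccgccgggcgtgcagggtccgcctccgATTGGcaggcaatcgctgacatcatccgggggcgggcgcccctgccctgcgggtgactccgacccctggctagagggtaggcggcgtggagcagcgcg
MVD: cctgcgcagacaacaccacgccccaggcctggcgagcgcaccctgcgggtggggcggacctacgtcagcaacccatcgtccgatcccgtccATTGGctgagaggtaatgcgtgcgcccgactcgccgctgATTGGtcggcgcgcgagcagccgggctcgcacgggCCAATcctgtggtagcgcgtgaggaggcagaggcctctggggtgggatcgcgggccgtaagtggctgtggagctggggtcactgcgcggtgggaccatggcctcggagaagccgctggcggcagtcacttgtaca

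Library totals ranged from 11219750 to 31510601 counts. IGF2BP3 was lower in all siIGF2BP3 libraries, at 97.9 to 105 CPM (counts divided by the library total and brought to a common scale) in Input against 127 to 133 CPM in siControl, and at 21.9 to 28.0 against 74.6 to 78.1 CPM in RPF. All 6 hepatocyte markers examined, among them ALB, AFP and HNF4A, were well expressed, with a summed Input level of 25673 to 26275 CPM in siControl and 22987 to 23525 CPM in siIGF2BP3. Their summed RPF level was also lower in siIGF2BP3, at 35888 to 39049 CPM against 40081 to 41433 CPM, and the part of this in the RPF values of the lipid genes was not tested. The fibroblast markers summed to at most 0.652 CPM in any library. Of the leukocyte markers, PTPRC and CD3E were at 0 in every Input library, whereas LYZ was at 3444 to 3804 CPM in Input. The endothelial markers summed to 2.06 to 6.49 CPM. 2 features of the RPF libraries bear on every RPF value. siControl RPF replicates 2 and 3 differed by less than the sampling noise over all genes (mean chi-square 0.941) and count as 1 sample in means and SDs, so that siControl RPF has n = 2 there and the other groups n = 3. The tests enter this pair as separate libraries unless it is said to be summed. siIGF2BP3 RPF replicate 1 stood apart, with a mean chi-square of 19.8 and 21.5 against replicates 2 and 3, which gave 1.15 against each other. Over the 33 measured lipid genes alone these values were 71.0, 78.7 and 1.71, and the siControl pair gave 1.64, against 4.25 and 3.29 for siControl replicate 1 with each of the pair. Results that rest on this library are therefore given with and without it.

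33 of the 36 genes passed the filter on low counts in every comparison. Their levels spanned a wide range. Per kb of transcript, Input in siControl ran from 1.63 ± 0.11 CPM for ACACB (SD, n = 3), the mitochondrial acetyl-CoA carboxylase, to 369 ± 13.5 CPM for SCD, which inserts a double bond into saturated fatty acids. Per kb of coding sequence, RPF in siControl ran from 1.72 ± 0.04 CPM for ACACB (SD, n = 2) to 843 ± 4.86 CPM for SCD. In the sterol branch the most abundant transcripts per kb were FDPS (farnesyl diphosphate synthase, 125 CPM), ACAT2 (cytosolic acetyl-CoA acetyltransferase, 109 CPM) and FDFT1 (squalene synthase, 98.1 CPM). The most footprints per coding kb in that branch lay on MSMO1 (methylsterol monooxygenase, 387 CPM), FDFT1 (329 CPM) and ACAT2 (329 CPM). LSS (lanosterol synthase) and MVK (mevalonate kinase) had the lowest Input levels of the sterol branch, at 1.91 and 2.05 CPM per kb.

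**Figure D1:**
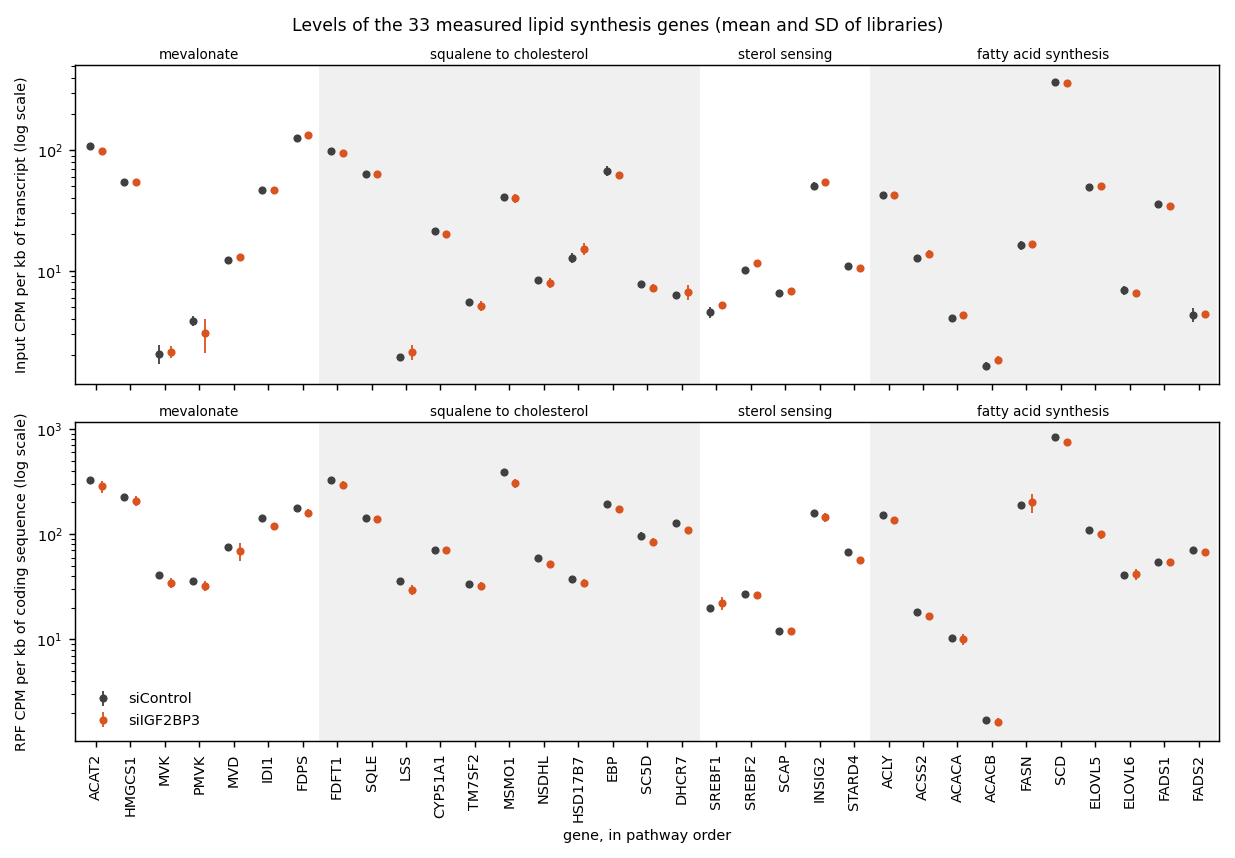
Levels of the 33 measured genes in pathway order, as Input CPM per kb of transcript (top) and RPF CPM per kb of coding sequence (bottom), both on log axes. Points are means and bars SDs, with siControl in grey and siIGF2BP3 in orange. SCD had the highest and ACACB the lowest RPF level, and the 2 conditions lie close together at every gene.

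Few differences in transcript abundance were called after the knockdown. In the RNA comparison (siIGF2BP3 against siControl Input), 1 of the 33 genes was called, against 5.96% of the 14759 genes tested. ACAT2 fell by 0.20 on the log2 scale (SE 0.046, edgeR adjusted p = 0.00991). ACAT2 Input was 168, 164 and 165 CPM in siControl and 147, 155 and 145 CPM in siIGF2BP3 replicates 1, 2 and 3, and the groups did not overlap. ACAT2 was no longer called when siIGF2BP3 Input replicate 3 was left out (adjusted p = 0.0701). ACAT2 lies at chr6:159760328-159779055 (hg38, plus strand), and its exons overlap 3 genes on the opposite strand. They share 397 bases with TCP1, 1458 with SOD2-OT1 and 1141 with ENSG00000285441. SOD2-OT1 was nearly silent (0.755 CPM in Input). ENSG00000285441 (101 CPM in Input and 109 CPM in RPF) and TCP1 (285 and 524 CPM) were well expressed. ACAT2 itself averaged 157 CPM over all Input and 365 CPM over all RPF libraries. Whether the counting used strand is not stated, so reads in the shared bases cannot be assigned to either gene with certainty.

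8 of the 33 genes had an unadjusted p below 0.05 in Input, 6 lower and 2 higher, near the share of all genes at that p (20.4%). The largest differences were those of PMVK (-0.39, SE 0.21, edgeR adjusted p = 0.315) and HSD17B7 (0.21, SE 0.097, adjusted p = 0.208), neither called. PMVK had only 22 to 45 counts in siIGF2BP3 Input, so its change is poorly determined. The median log2 fold change was -0.05 in the sterol branch and -0.03 in the fatty acid branch, against 0.00 for all genes tested. By group of genes, 5 of 7 mevalonate genes, 8 of 11 genes from squalene to cholesterol and 7 of 10 measured fatty acid genes had a log2 fold change below 0. In sterol sensing and transport, 4 of 5 were above 0. SREBF2 Input was 53.1, 55.1 and 52.2 CPM in siControl and 57.1, 62.8 and 61.9 CPM in siIGF2BP3. These values did not overlap, but the difference of 0.13 (SE 0.060) was not called (adjusted p = 0.209). SREBF1 Input was 23.5, 23.5 and 19.7 CPM in siControl and 23.7, 25.4 and 27.0 CPM in siIGF2BP3, a difference of 0.14 on the log2 scale (SE 0.089, adjusted p = 0.389). Both genes, which encode the transcription factors of the pathway, thus sat slightly higher in Input without passing the test. SREBF1 shares 556 exon bases with RAI1 on the opposite strand. Over all Input libraries RAI1 averaged 14.8 CPM against 23.8 CPM for SREBF1, and reads in these bases cannot be assigned with certainty.

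In RPF, no lipid gene was called in the main edgeR fit (all libraries, no offset), while the values leaned downward. Of the 33 genes tested, 0 had an edgeR adjusted p below 0.05, against 1.66% of the 20192 genes tested. DESeq2 called 2 (IDI1 and MSMO1), against 3.63% of all genes with an adjusted p in that fit. 14 of the 33 had an unadjusted p below 0.05, all of them lower, against 7.91% of all genes and 9.95% of protein-coding genes that were lower at that p. With the like siControl pair summed, 7 of the 33 were, all of them lower, against 4.82% of all genes. 27 of the 33 had a log2 fold change below 0, against 49.6% of protein-coding genes. The median log2 fold change was -0.15 in the sterol branch and -0.05 in the fatty acid branch, against 0.01 for all genes and 0.00 for protein-coding genes. In 17 of the genes, 12 sterol and 5 fatty acid, every siIGF2BP3 RPF library lay below every siControl library, a pattern found in 14.8% of all genes and 17.1% of protein-coding genes. 1 gene, SREBF1, showed the opposite pattern, narrowly in siIGF2BP3 replicates 2 and 3 (70.1 and 70.0 CPM, against at most 69.2 CPM in siControl). The share of all genes with that opposite pattern was not taken. The genes of one pathway share their regulators and these libraries, so they do not count as independent observations.

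The mevalonate genes were lower in RPF throughout, with log2 fold changes of -0.10 to -0.22 in 7 of 7 genes, none called in the main edgeR fit. ACAT2 RPF was 391, 395 and 389 CPM in siControl and 289, 363 and 364 CPM in siIGF2BP3 (log2 fold change -0.20, SE 0.073, adjusted p = 0.247). The groups did not overlap, and siIGF2BP3 replicate 1 was the lowest of all. HMGCS1, which makes HMG-CoA, had 366, 337 and 349 CPM in siControl and 286, 335 and 349 CPM in siIGF2BP3. Its groups overlapped at the upper end (log2 fold change -0.10, SE 0.063, adjusted p = 0.495). IDI1, the isopentenyl diphosphate isomerase, had 126, 116 and 115 CPM in siControl and 98.2, 103 and 106 CPM in siIGF2BP3, without overlap. Its log2 fold change of -0.20 (SE 0.048) had an edgeR adjusted p of 0.0941, and 0.280 with the like siControl pair summed.

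Between squalene and cholesterol, 10 of 11 genes were below 0 in RPF, again with none called in the main edgeR fit. MSMO1, which removes methyl groups from the sterol ring, came closest. Its RPF level was 354, 325 and 327 CPM in siControl and 240, 279 and 285 CPM in siIGF2BP3, so that the groups were well separated. The log2 fold change of -0.31 (SE 0.060) had an adjusted p of 0.0570 in edgeR, and 0.00207 in DESeq2. With the like siControl pair summed, the edgeR adjusted p was 0.217. DHCR7, a reductase at the end of the route, had 185, 177 and 184 CPM in siControl and 166, 151 and 148 CPM in siIGF2BP3 (log2 fold change -0.21, SE 0.067, adjusted p = 0.171). LSS had 80.8, 77.8 and 75.5 CPM in siControl and 73.7, 63.7 and 58.9 CPM in siIGF2BP3 (log2 fold change -0.24, SE 0.094, adjusted p = 0.268). SQLE, the squalene epoxidase, gave no separation. It had 250, 244 and 242 CPM in siControl and 229, 243 and 251 CPM in siIGF2BP3, and the groups overlapped (log2 fold change -0.01, SE 0.041, adjusted p = 0.951). CYP51A1, the lanosterol demethylase, was at 0.03 (SE 0.049), but it shares 2844 exon bases with an overlapping gene on the same strand and its counts were fractional in all 12 libraries. Counts were also fractional in all 6 RPF libraries at LSS, MVD, FDPS, HSD17B7, ACACA and ELOVL6.

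Of the regulators, only STARD4, a cytosolic sterol carrier, was clearly separated downward, with 44.02, 39.7 and 40.4 CPM in siControl RPF and 31.8, 35.5 and 36.9 CPM in siIGF2BP3 RPF (log2 fold change -0.23, SE 0.060, adjusted p = 0.109). SREBF2 RPF was 91.0, 91.7 and 93.5 CPM in siControl and 95.2, 88.9 and 86.5 CPM in siIGF2BP3 (log2 fold change -0.01, SE 0.062). SCAP, the SREBP escort protein, had 48.2, 47.9 and 41.9 CPM in siControl and 49.5, 44.2 and 45.0 CPM in siIGF2BP3 (log2 fold change 0.02, SE 0.081). Both overlapped between groups. INSIG2, a retention protein of SCAP, had 105, 115 and 107 CPM in siControl and 86.8, 101 and 106 CPM in siIGF2BP3. INSIG2 Input was 169, 194 and 176 CPM in siControl and 202, 193 and 187 CPM in siIGF2BP3, so that neither assay gave separated groups. SREBF1 RPF was 68.1, 67.2 and 69.2 CPM in siControl and 89.3, 70.1 and 70.0 CPM in siIGF2BP3. It gave a log2 difference of 0.18 (SE 0.11, adjusted p = 0.484) with all libraries and 0.04 (SE 0.031, adjusted p = 0.512) without siIGF2BP3 replicate 1.

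In the fatty acid branch, RPF was lower at ACLY and SCD and showed no separation at the carboxylases. ACLY, which makes cytosolic acetyl-CoA from citrate, had 496, 496 and 501 CPM in siControl and 434, 446 and 464 CPM in siIGF2BP3 (log2 fold change -0.14, SE 0.039, adjusted p = 0.137). SCD had 911, 897 and 911 CPM in siControl and 770, 832 and 848 CPM in siIGF2BP3 (log2 fold change -0.13, SE 0.038, adjusted p = 0.140). Neither gene had overlapping groups. ACACA, the cytosolic acetyl-CoA carboxylase, had 72.9, 74.7 and 73.2 CPM in siControl and 61.6, 75.8 and 77.8 CPM in siIGF2BP3 (log2 fold change -0.02, SE 0.074). FASN, the fatty acid synthase, had 1427, 1402 and 1427 CPM in siControl and 1878, 1331 and 1333 CPM in siIGF2BP3. Replicate 1 therefore lay above and replicates 2 and 3 below every siControl library, and the log2 fold change was 0.12 (SE 0.14, adjusted p = 0.768) with all libraries. FASN Input was 149, 124 and 139 CPM in siControl and 130, 145 and 146 CPM in siIGF2BP3.

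**Figure D2:**
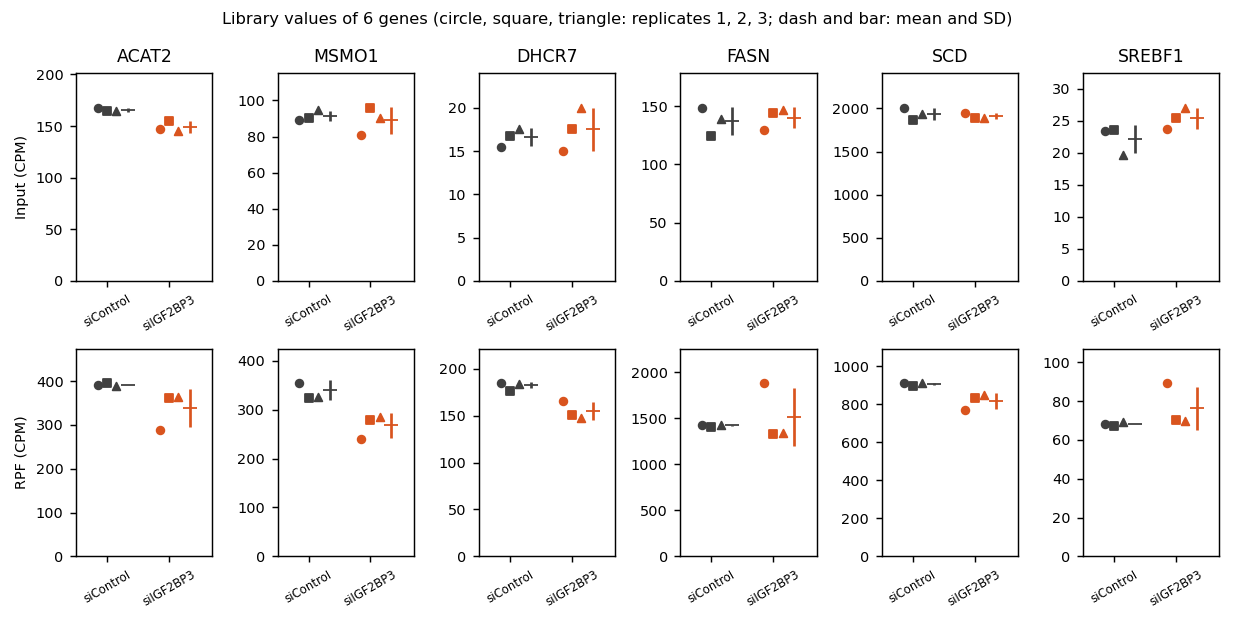
CPM of 6 genes in every library, Input in the upper and RPF in the lower row, on linear axes from 0. Points are libraries (circle, square and triangle for replicates 1, 2 and 3), dashes and bars the mean and SD, with siControl in grey and siIGF2BP3 in orange. siIGF2BP3 RPF replicate 1 is the lowest library for ACAT2 and MSMO1 and the highest for FASN and SREBF1.

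The library that stood apart spread the genes in both directions. Relative to the mean of siIGF2BP3 RPF replicates 2 and 3, replicate 1 was higher by 0.50 (log2) at FASN, 0.47 at MVD and 0.35 at SREBF1. It was lower at ACAT2 (-0.33), ACACA (-0.32), ELOVL6 (-0.32) and HMGCS1 (-0.26). Across the 33 genes this deviation went with the GC content of the transcript (Spearman rho 0.741, Pearson r 0.774). Across 11773 protein-coding genes rho was 0.613 and r 0.618, and the same deviation of siControl RPF replicate 1 gave a rho of -0.05. Genes are not independent replicates, and the points share libraries and base composition. The part of GC content in the RPF differences was not tested beyond the offset described next.

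**Figure D3:**
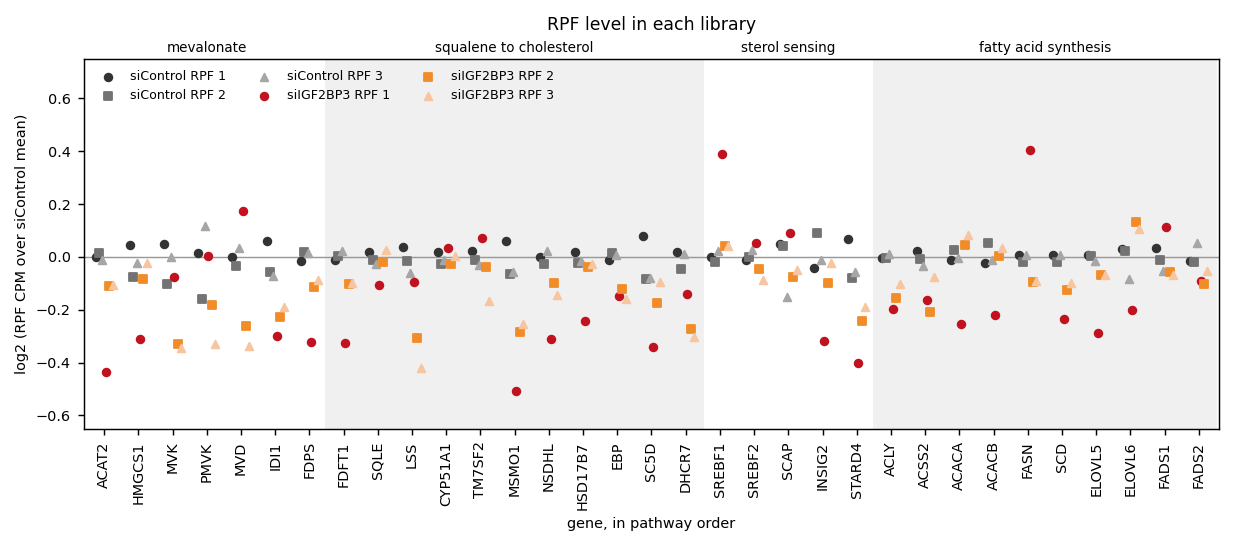
RPF level of the 33 genes in each of the 6 RPF libraries, as log2 of CPM over the siControl mean. siIGF2BP3 RPF replicate 1 (red circles) departs from replicates 2 and 3 (orange) in both directions, most at FASN, SREBF1 and MVD upward, while replicates 2 and 3 lie near each other.

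Without siIGF2BP3 RPF replicate 1, 16 of the 33 genes were called in RPF and all 16 were lower, against 8.57% of all genes and 12.5% of protein-coding genes called lower in that fit. They were 6 of the 7 mevalonate genes (ACAT2, MVK, PMVK, MVD, IDI1 and FDPS), 6 of the 11 genes from squalene to cholesterol (FDFT1, LSS, MSMO1, NSDHL, EBP and DHCR7), STARD4, and the fatty acid genes ACLY, FASN and SCD. The largest differences were those of LSS (-0.35, SE 0.040, adjusted p = 0.00026), MVK (-0.33, SE 0.043, adjusted p = 0.000669), MVD (-0.30, SE 0.036, adjusted p = 0.000337) and DHCR7 (-0.29, SE 0.027, adjusted p = 9.4e-05). Their transcripts have 58.1% to 65.5% GC, against a median of 49.6% over the 33. In this fit the log2 fold change had a Spearman rho with GC content of -0.133 over the 33 genes. Over 11773 protein-coding genes it was -0.191. With all libraries these values were 0.292 and 0.174. The part of GC content in this fit was not tested. HMGCS1 (-0.04), SQLE (0.01), SREBF2 (-0.07), SCAP (-0.05), INSIG2 (-0.07) and ACACA (0.06) were not called. These calls rest on 2 siIGF2BP3 libraries that differed little from each other and on a siControl group with the like pair. With that pair summed as well, 13 of the 33 were called, all lower, against 7.4% of all genes called lower, and FDPS, FDFT1 and FASN no longer were. With the pair summed and replicate 1 kept, 0 were called, in a fit that called 14 of all 20790 genes (0.0673%).

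With an offset for the GC trend of each library, added after the data were seen, and all 6 libraries kept, 7 genes were called in RPF and all were lower. They were MVK, MVD, IDI1, LSS, MSMO1, DHCR7 and STARD4, all of the sterol branch, against 2.72% of all genes called lower in that fit. The sterol branch median was -0.14 and the fatty acid branch median -0.07 under this offset. All 7 were also among the 16. The number of calls among these genes thus ran from 0 to 16, while the sterol median was below 0 in each of these fits.

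**Figure D4:**
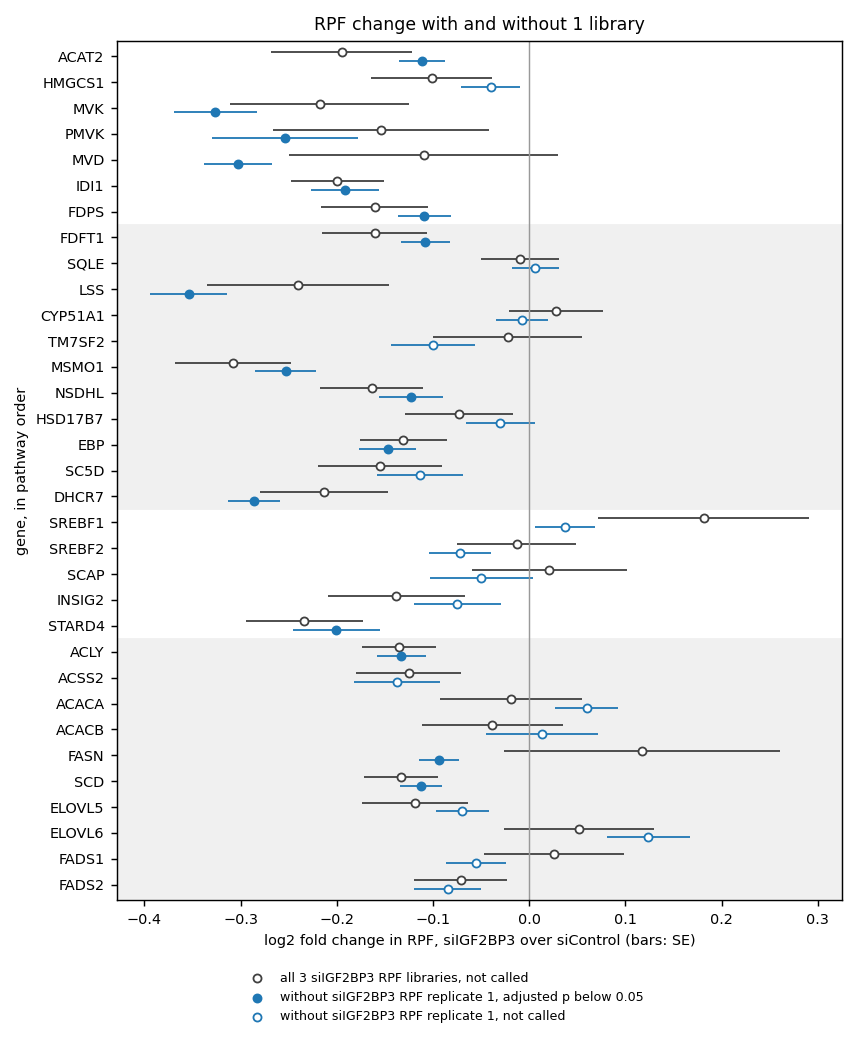
Log2 fold change in RPF (siIGF2BP3 over siControl) of the 33 genes with bars for SE, from all libraries (grey) and without siIGF2BP3 RPF replicate 1 (blue). Filled points have an adjusted p below 0.05, of which there are 16 in blue and 0 in grey.

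As a share of each library, the sterol branch took 0.329% to 0.338% of the counts in siControl RPF and 0.284% to 0.307% in siIGF2BP3 RPF, so the ranges did not overlap. All protein-coding genes together also took less of the siIGF2BP3 RPF counts, at 82.7% to 84.9% against 86.0% to 86.2%. Of the protein-coding counts alone, the sterol branch took 0.383% to 0.392% in siControl RPF and 0.343% to 0.362% in siIGF2BP3 RPF, again without overlap. In Input the shares were 0.187% in each siControl library and 0.185% to 0.189% in siIGF2BP3. The fatty acid branch took 0.323% to 0.327% in siControl RPF. In siIGF2BP3 RPF it took 0.348% in replicate 1, where FASN was high, and 0.303% and 0.307% in replicates 2 and 3.

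Translational efficiency (TE), tested as the change in RPF beyond the change in Input over all 12 libraries, called 0 of the 33 genes in edgeR, against 2.17% of the 13395 genes tested. DESeq2 also called 0, against 4.33% of all genes with an adjusted p in that fit, and limma on log2 ratios called 0 of all 13395 genes. 6 of the 33 had an unadjusted p below 0.05 in edgeR, near the share of all genes at that p (15.9%). 5 of them were lower, namely FDPS (-0.21, SE 0.075), HSD17B7 (-0.28, SE 0.12), LSS (-0.35, SE 0.16), MSMO1 (-0.22, SE 0.090) and IDI1 (-0.15, SE 0.070). CYP51A1 was higher (0.15, SE 0.071). The median log2 change in TE was -0.07 in the sterol branch and -0.06 in the fatty acid branch, against 0.01 for all genes. ACAT2, called in Input, had a TE change of 0.01 (SE 0.087), since its Input and RPF values were lower by like amounts. Without siIGF2BP3 RPF replicate 1, 3 genes were called, all lower, against 5.48% of all genes called lower. They were LSS (-0.45, SE 0.12, adjusted p = 0.0193), MVD (-0.35, SE 0.083, adjusted p = 0.00766) and DHCR7 (-0.31, SE 0.098, adjusted p = 0.0444), and DHCR7 was not called once the siControl pair was summed as well (adjusted p = 0.0629).

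The ratio of RPF to Input differed far more between genes than between conditions. In siControl it was highest at DHCR7 (10.99), FASN (10.3), LSS (8.44), MVK (8.37) and FADS2 (7.07), and lowest at SCD (0.469), FADS1 (0.519) and INSIG2 (0.603). The median over the 33 genes was 1.75, against 0.905 over 11773 protein-coding genes, and 18 of the 33 lay above the upper quartile of all these genes (1.67). In siIGF2BP3 the ratio was 8.84 at DHCR7, 10.8 at FASN, 6.30 at LSS and 0.428 at SCD, and the median over the 33 was 1.66. FADS1 and FADS2, neighbouring desaturases whose exons share 490 bases on opposite strands, lay at opposite ends of this order. FADS1 had 157 ± 3.91 CPM in Input and 81.5 ± 2.61 CPM in RPF, and FADS2 had 13.4 ± 1.78 and 94.7 ± 1.60 CPM, in siControl. MVK shares 306 exon bases with MMAB on the opposite strand. Over all Input libraries MMAB averaged 15.4 CPM against 5.90 CPM for MVK, and reads in these bases cannot be assigned with certainty. The log2 ratio was higher at higher GC content across the 33 genes (Spearman rho 0.624, Pearson r 0.621) and less so across all protein-coding genes (rho 0.236, r 0.222). The 5 genes with the highest ratios had transcripts of 58.1% to 65.3% GC, and the 3 with the lowest 36.3% to 49.3%. These ratios are not scaled to length. With RPF per kb of coding sequence over Input per kb of transcript, the siControl median was 3.36 over the 33 genes. It was 2.07 over the 11773 protein-coding genes, with an upper quartile of 3.98. On that scale the lowest were ACACB (1.06) and FDPS (1.42), while SCD was at 2.28 and INSIG2 at 3.18. SC5D was at 12.6, and DHCR7 stayed highest (20.3). The part of the transcript over which reads were counted and the preparation of the Input libraries are not described, so the ratios hold no absolute efficiency. The part of GC content in them was not tested.

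**Figure D5:**
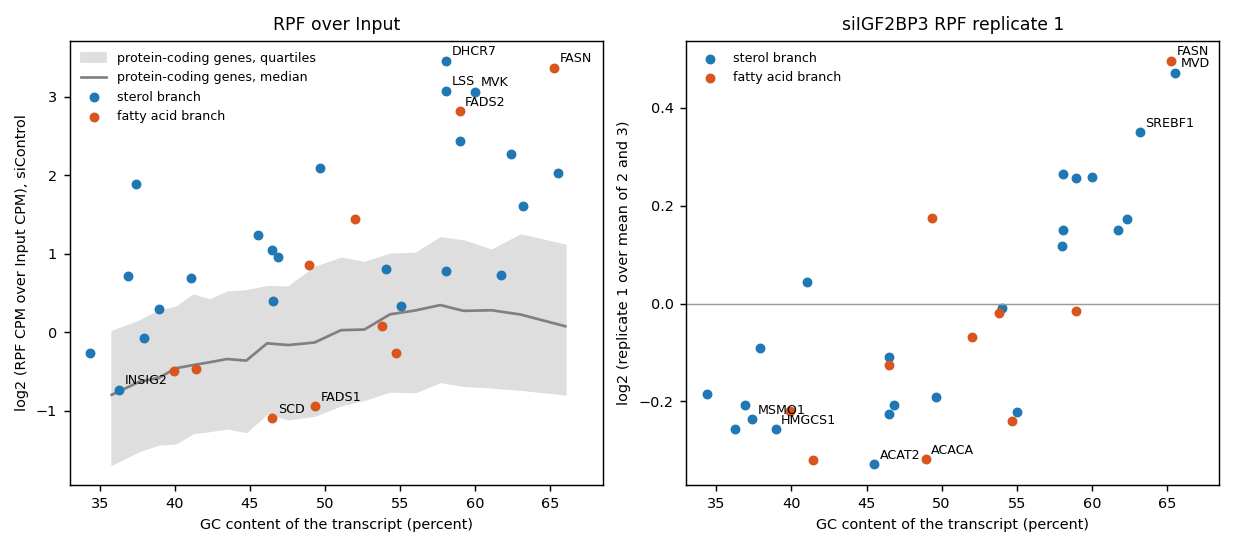
Left, log2 of RPF over Input in siControl against transcript GC content for the 33 genes, with the median and quartiles of 11773 protein-coding genes in 20 bins of GC. Right, log2 of siIGF2BP3 RPF replicate 1 over the mean of replicates 2 and 3 against GC content for the same genes. In both, genes of high GC content such as FASN lie high, while SCD and FADS1 lie lowest on the left.

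3 of the 36 genes had too few counts to be tested, and whether they are silent in these cells or were lost in the counting was not tested. INSIG1, the other INSIG gene of the list, had 2 counts in all siControl Input libraries, 0 in siControl RPF and siIGF2BP3 Input, and 2 in siIGF2BP3 RPF. A count of 0 in a library allows up to 3 counts, which is 0.0952 to 0.267 CPM in these libraries. ME1, a cytosolic source of NADPH, had at most 1 count per group. THRSP, a nuclear protein tied to lipogenesis, had 14 counts in siControl Input, 10 in siIGF2BP3 Input and 1 in each RPF group. MIR33A and MIR33B, microRNA genes within introns of SREBF2 and SREBF1, had no more than 1 count in any library. That count was seen for MIR33A in siControl RPF replicate 2 and siIGF2BP3 RPF replicate 2, and microRNAs were not selected for in either assay.

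Other lipid pathway genes were listed with earlier results of these data known. Of all genes tested, 5.96% were called in Input, 1.66% in RPF and 2.17% in TE. In the list of 12 genes for SREBP proteolysis, ER exit and sterol-regulated degradation, SEC24A, a coat protein of ER exit vesicles, rose in RPF (0.31, SE 0.058, edgeR adjusted p = 0.0499) and no gene was called in Input or TE. None of the 12 isoprenoid branch genes was called in any comparison. Among 13 tested genes of cholesterol esterification, trafficking and export, STARD3 (0.28), GRAMD1A (0.21) and OSBPL2 (0.27), which carry sterols between membranes, rose in Input. In the same list SOAT2, which esterifies cholesterol, fell by 0.30 in RPF (SE 0.045, adjusted p = 0.0242). SOAT2, GRAMD1A and OSBPL2 fell in TE, by 0.42, 0.36 and 0.33. That list thus had 3 of 13 genes called in Input, 1 in RPF and 3 in TE. Of 11 genes of glycerolipid synthesis and lipid droplets, PLIN2, a coat protein of lipid droplets, fell in Input by 0.16 (SE 0.043, adjusted p = 0.0223). Of 12 tested genes of other fatty acid activation and elongation, ACSL1, an acyl-CoA synthetase, rose in Input (0.40, SE 0.052, adjusted p = 1.32e-05) and fell in TE by 0.48. Of 15 fatty acid oxidation genes, ACADVL, an acyl-CoA dehydrogenase, rose in Input (0.23) and fell in TE by 0.33. With the like siControl RPF pair summed, SEC24A (adjusted p = 0.208) and SOAT2 (0.167) were no longer called in RPF, and in TE SOAT2 (0.0698), GRAMD1A (0.103) and OSBPL2 (0.0596) were not, while ACSL1 (0.0366) and ACADVL (0.0475) were. Without siIGF2BP3 RPF replicate 1 and with the pair kept apart, all of these stayed called (edgeR adjusted p of 5.28e-05 to 0.00215). Those fits called 3410 of 20615 genes in RPF and 1350 of 13479 in TE.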

How the data were processed

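Ribosome profiling (ART-seq) gave 3 Input and 3 RPF libraries for each of siControl and siIGF2BP3 in HepG2 cells. Group and replicate number came from the sample titles. RPF libraries hold gel-selected fragments of 28 to 30 nt. The Input samples carry the same protocol text, so their own preparation is not described. Per the labels, the authors used Cutadapt for trimming, STAR for alignment to hg38 and featureCounts for counting (versions, strand and multi-mapping options not given in the sources used here). The deposited values are estimated counts, partly fractional, for 58721 genes, not scaled to depth. They were rounded before testing. Reads carried no molecular identifiers, so the limit from a count of 0 covers counting error only. Library totals of 11219750 to 31510601 counts make counting error small for abundant genes only. It is larger for genes with few counts, such as PMVK with 22 to 45 counts in siIGF2BP3 Input. The spread between libraries is the error used.

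The 36 genes were joined by GENCODE release 44 symbol. Members and lists were chosen with earlier results of these data known. CPM is the count scaled to the same library total. Levels per kb used the canonical GENCODE transcript or its coding sequence, and GC content that of the transcript. Comparisons were fitted over all genes with edgeR 4.0.16 (R 4.3.3): filterByExpr, TMM factors (for TE within each assay), quasi-likelihood tests with robust dispersion, and Benjamini-Hochberg adjustment at 0.05. A gene is called when its adjusted p is below 0.05. TE is the interaction of assay and knockdown over 12 libraries. The study's methods name DESeq2 for TE, used here (1.42.0) as an alternative. An SE is the log2 fold change over the square root of F. Functions were tested on simulated data. Library values were planned for genes called in a comparison and for HMGCS1, SQLE, INSIG1, INSIG2, SCAP, SREBF1, SREBF2, ACACA, FASN and SCD; IDI1, MSMO1, DHCR7, LSS, STARD4 and ACLY were added after their values were seen. The alternatives comprised DESeq2, factors by RLE or upper quartile, fits without a filter, with a minimum mean of 5 CPM or of protein-coding genes alone, the replicate block, length offsets, leaving out each library, the summed siControl pair, a culture block and limma 3.58.1 on log2 ratios (pseudocount 0.5). The GC offset (span 0.3), and the summed pair together with leaving out siIGF2BP3 RPF replicate 1, were chosen after seeing the data.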

Additional observations from a re-analysis of the deposited data

How the results depend on the processing

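All branch medians stayed below 0 under every alternative run, and the ACAT2 fall in Input was called under 14 of 15. Leaving out 1 library at a time gave 0 to 1 called genes in Input (0 without siIGF2BP3 Input replicate 3), 0 to 16 in RPF and 0 to 3 in TE. The highest counts in RPF and TE came without siIGF2BP3 RPF replicate 1. Under the same leaving out, sterol medians ran from -0.0700 to -0.0240 in Input, -0.158 to -0.112 in RPF and -0.0990 to -0.0543 in TE. Fatty acid medians ran from -0.0834 to -0.0241, -0.0773 to -0.0417 and -0.0862 to -0.0362. In RPF, DESeq2 called 2 genes, against 3.63% of all genes, and no filter 1 (MSMO1), against 426 of all 34396 genes. The GC offset called 7, against 2.72% of all genes called lower. The summed pair without siIGF2BP3 RPF replicate 1 called 13, against 7.4% called lower. In TE that last setting called 2, all lower, against 618 of all 13522 genes called lower. The sterol RPF median was -0.17 with upper-quartile factors, -0.14 with a mean of at least 5 CPM, -0.14 with the length offset and -0.11 with the summed pair without that library. The fatty acid RPF median was -0.028 with the length offset. In TE, the sterol median was -0.10 with a mean of at least 5 CPM, -0.10 with the length offset, -0.092 with the summed pair without that library and -0.14 with limma. The fatty acid TE median was -0.023 with the length offset and -0.13 with limma, whose ratios carry no TMM factors and have a median of -0.06 over all genes. The cause of these shifts was not tested. The replicate block called 1, 0 and 0 genes in Input, RPF and TE, and changed no call. Same-numbered libraries deviated together in RPF (r of 0.345, 0.246 and 0.0759) but not in Input (-8.63e-05, -0.0534 and -0.0244), so the numbers were not taken as pairs. The fewest counts of a measured gene in any library were 22 (PMVK, in siIGF2BP3 Input), and INSIG1, ME1 and THRSP had too few counts to be tested.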
